A study of Mus musculus with 7 samples.

Results

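The 10 genes described here cover 3 steps in the handling of activated fatty acids. Acsl1, Acsl3, Acsl4, Acsl5 and Acsl6 encode the long-chain acyl-CoA synthetases, Acot1, Acot2, Acot7 and Acot13 encode acyl-CoA thioesterases, and Dbi encodes the acyl-CoA binding protein. They were taken by gene name from a table of 22880 genes, and all 10 were found. RNA had been sequenced from optic nerves of mice at postnatal day (P) 14. The control group held 4 mice homozygous for a loxP-flanked allele of fatty acid synthase (Fasn lox/lox) without Cre. The study's methods also allow Fasn lox/wt mice as developmental controls and do not give the genotype of each sequenced control. The mutant group held 3 mice with Fasn lox/lox alleles plus Cre recombinase under the Olig2 promoter (olig2cre), which is active in the oligodendrocyte lineage. Both nerves of a mouse formed 1 sample, so the RNA also came from astrocytes, microglia, endothelial cells, meningeal cells and the contents of axons, in which the Fasn alleles are not the intended target. In such bulk samples, fewer cells of a type and less RNA per cell cannot be told apart. Estimated reads per sample ran from 27452222 to 43462575.

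A fatty acid must be joined to coenzyme A before a cell can build it into phospholipid, elongate it or oxidize it. Long-chain acyl-CoA synthetases catalyze that joining, both for fatty acids taken up from outside and for the palmitate that FASN releases as a free acid. Thioesterases run the opposite way and return the free acid, and binding proteins hold acyl-CoA in the cytosol and carry it between membranes. Myelin is rich in lipid, including lipid with very long acyl chains, and its acyl chains pass through these steps.

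Fasn itself was measured first, as a check of the labels. In FPKM (fragments per kilobase of transcript, scaled to library size, a level per length), Fasn was at 210.3, 169.1, 211.1 and 228.3 in controls 1 to 4 and at 69.3, 50.5 and 49.0 in mutants 1 to 3. The groups stood well apart, and the mutant mean was 27.5% of the control mean. On the scale of log2(FPKM + 0.5), Fasn fell by 1.86 ± 0.14 (SE, n = 4 and 3; adjusted p = 0.0031, limma-trend with Benjamini-Hochberg adjustment). The cell type markers of the nerve were present, with summed oligodendrocyte markers between 41399 and 64620 FPKM, microglia markers between 233 and 303 FPKM and endothelial markers between 119 and 161 FPKM, while the 5 adipocyte markers summed to at most 0.659 FPKM in any sample. Mutant 2 held 44.7 FPKM of summed skeletal muscle markers against 0.727 to 3.175 in the other 6 samples, and mutant 1 held 4273 FPKM of meningeal fibroblast markers against 1717 to 2581 elsewhere. Control 2 held 12727 FPKM of red blood cell markers against 2851 to 5595 in the other samples. Mutant 3 held 75.1 FPKM of summed neuron markers against 42.3 to 57.2 in the other samples.

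The thioesterases Acot1 and Acot2 are neighbors on mouse chromosome 12, and part of what follows depends on how alike they are. Acot1 encodes a cytosolic enzyme and Acot2 a mitochondrial one. Their coding sequences, of 1257 and 1359 bases without the stop codon, matched at 95.3% of 1236 aligned positions and shared an identical run of 273 bases. The end of that run is shown from the GRCm38 genome, plus strand, within a coding exon of each gene (chr12:84017219-84017308 in Acot1 and chr12:83992941-83993030 in Acot2), with the 5 bases that differ in capitals.
Acot1: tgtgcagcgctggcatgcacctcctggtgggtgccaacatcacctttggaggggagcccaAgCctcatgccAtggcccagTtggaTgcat
Acot2: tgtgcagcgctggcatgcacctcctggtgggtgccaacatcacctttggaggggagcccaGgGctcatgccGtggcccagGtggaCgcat
A read that lies within the shared run cannot be assigned to either gene by its letters. Of all 125-base windows in the annotated coding transcripts, 16.6% of those of Acot1 and 13.7% of those of Acot2 also occurred in another gene, in each case a member of the same family. For the other 8 genes this share was 0, except for Acsl3, where 2.02% of windows were shared with Utp14b, a gene that overlaps it on the same strand. The levels of Acot1, Acot2 and, to a small extent, Acsl3 therefore rest partly on how RSEM divided shared reads.

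In control nerves the 10 genes spanned 2 orders of magnitude of level per length. Dbi, whose product binds long-chain acyl-CoA and is also known as diazepam binding inhibitor, was highest at 627 ± 56 FPKM (SD, n = 4). Acsl3, a synthetase of the endoplasmic reticulum and lipid droplets, followed at 327 ± 27 FPKM (SD, n = 4). Acot7, the cytosolic thioesterase known as brain acyl-CoA hydrolase, was at 109 ± 7.7 FPKM and Acsl1, a synthetase best known for feeding fatty acids to mitochondria, at 95.1 ± 8.5 FPKM (SD, n = 4 each). These 2 were the first neighbors in the order whose control ranges overlapped. Acsl6, a brain-enriched synthetase that favors polyunsaturated fatty acids such as docosahexaenoic acid, came next at 45.7 ± 1.4 FPKM, followed by Acot13, a mitochondria-associated thioesterase, at 20.9 ± 1.9 FPKM and Acot1 at 11.8 ± 0.39 FPKM (SD, n = 4 each). At the low end stood Acsl4, which prefers arachidonic acid, at 6.73 ± 0.71 FPKM, Acsl5, a synthetase of mitochondria and endoplasmic reticulum, at 5.82 ± 0.44 FPKM, and Acot2 at 4.09 ± 0.47 FPKM (SD, n = 4 each). The control ranges of Acsl4 and Acsl5 overlapped, and every other pair of neighbors was separated. Mutant means kept this order apart from the overlapping pair, where Acsl1 at 89.7 ± 5.5 FPKM stood above Acot7 at 87.7 ± 7.0 FPKM (SD, n = 3 each). Even the lowest gene, Acot2, rested on 252 to 442 estimated reads a sample.

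**Figure D1:**
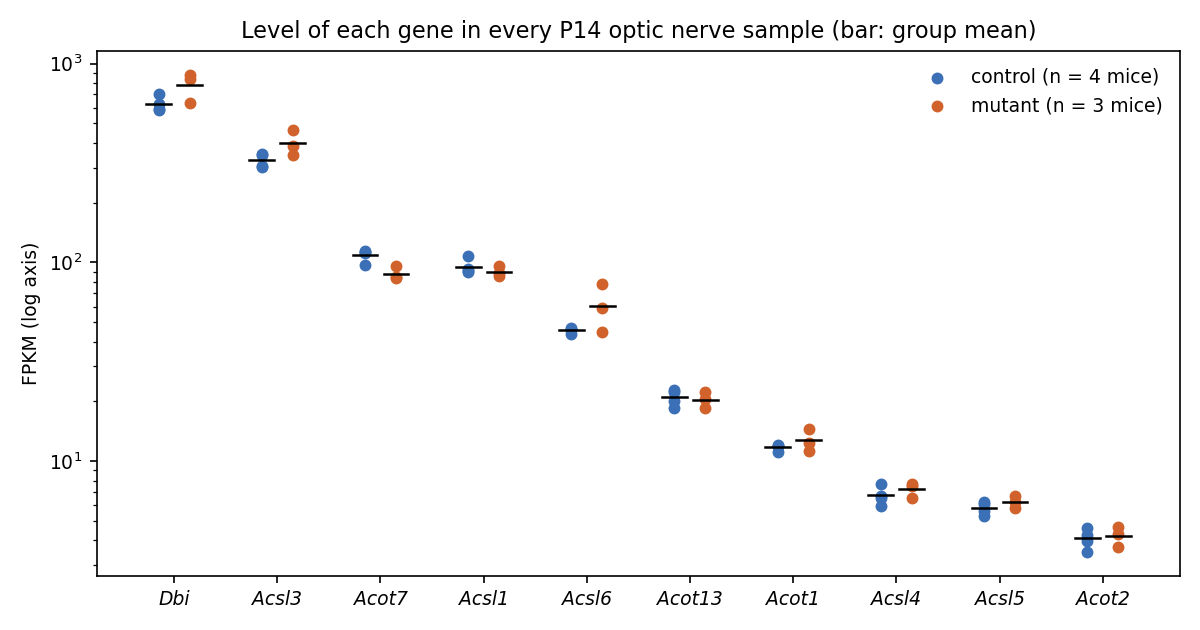
FPKM (log axis) of the 10 genes in each of 4 control and 3 mutant samples, in the order of the control mean, with a bar at each group mean. The levels run from Dbi at 627 to Acot2 at 4.09 FPKM in controls, and the groups do not overlap for Acot7 alone.

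Loss of Fasn in the oligodendrocyte lineage was then compared with the control state for each gene. None of the 10 genes passed the adjusted threshold of 0.05 in limma-trend, and 4 had an unadjusted p under 0.05, with Acsl3, Acsl6 and Dbi higher in the mutant mean and Acot7 lower. Over all 13866 genes tested, 363 (2.62%) passed the adjusted threshold and 24.4% had an unadjusted p under 0.05. The 363 divided into 175 (1.26%) higher and 188 (1.36%) lower in mutants. Tested on the authors' normalized counts, 103 genes were called higher and 267 lower, and with samples centered on their median, 117 higher and 283 lower. On normalized counts the log2 fold changes of Acsl3, Acsl6 and Dbi were 0.20, 0.29 and 0.24, and with centered samples 0.19, 0.28 and 0.23. Their unadjusted p-values under both scalings were 0.109 to 0.165 (limma-trend). Acot7 was at -0.39 under both, with unadjusted p of 0.0031 and 0.0032 and adjusted p of 0.0631 and 0.0650 (limma-trend). It thus did not pass the adjusted threshold under either. Of all 13866 genes, 3517 and 3506 had an unadjusted p under 0.05 in these 2 fits. With the replicate number as a block, which leaves control 4 out of the genotype estimate, 8.36% of all genes passed and still none of the 10. Without control 2, mutant 1, mutant 2 or mutant 3, each named above for a high marker sum, 0, 1, 1 and 0 of the 10 passed. In the same fits, 15, 186, 907 and 6 of all 13866 genes passed. The median log2 fold change of the 10 genes was 0.10, with 7 estimates above 0 and 3 below, beside a median of 0.05 over all genes tested.

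Acot7 (ENSMUSG00000028937, GRCm38 chromosome 4, 152178134 to 152271855, plus strand) was the member with the smallest p. It was at 97.0, 111.2, 112.3 and 113.7 FPKM in controls 1 to 4 and at 84.0, 95.7 and 83.3 FPKM in mutants 1 to 3. All 3 mutants lay below all 4 controls, with mutant 2 close under control 1. The mutant mean was 80.8% of the control mean, a log2 fold change of -0.31 ± 0.08 (SE; 95% interval -0.48 to -0.13; adjusted p = 0.0717 in limma-trend). Acot7 was alone among the 10 in having groups that did not overlap, a pattern met by 21.1% of all genes tested. The exact permutation test of its group means gave p = 0.0571 (two-sided), the smallest that 4 against 3 samples allow. Without mutant 2, the library with the muscle transcripts, the adjusted p was 0.0419 (limma-trend), in a fit where 907 of all genes passed. Over all the other settings the adjusted p of Acot7 ran up to 0.186. Summed oligodendrocyte markers were at 56849 to 64620 FPKM in controls and 41399 to 53033 in mutants (10 of 10 estimates lower, Mag and Cnp past the adjusted threshold). Summed oligodendrocyte progenitor markers were at 381 to 421 FPKM in controls and 280 to 337 in mutants (5 estimates lower, 1 higher, Cspg4 and Gpr17 past the adjusted threshold). Summed neuron markers overlapped between groups, at 42.3 to 57.2 FPKM in controls and 53.2, 52.8 and 75.1 in mutants 1 to 3 (4 estimates higher, 2 lower, none past the threshold). The part of these cell types in the Acot7 difference was not tested.

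The genes whose levels over the 7 samples ran most like Acot7 were Rhog at a Pearson r of 0.987 on log2(FPKM + 0.5), Slc25a1, the mitochondrial citrate carrier that exports citrate for fatty acid synthesis, at 0.986, and Tsc22d4 at 0.985. These are the highest of 13866 genes over 7 samples that share their libraries and genotype groups, and are given as a description. Their log2 fold changes were -0.31, -0.23 and -0.35.

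Among the synthetases, Acsl3 was the most abundant (ENSMUSG00000032883, GRCm38 chromosome 1, 78657825 to 78707743, plus strand). Its level was 347.2, 302.3, 304.9 and 351.9 FPKM in controls and 345.4, 461.8 and 384.8 FPKM in mutants. Mutants 2 and 3 lay above all controls and mutant 1 lay among them. The log2 fold change was 0.28 ± 0.11 (SE; 95% interval 0.03 to 0.52; adjusted p = 0.16 in limma-trend), and it was 0.16 without mutant 2. Utp14b, the gene that overlaps Acsl3, was at 10.98 ± 1.5 FPKM in controls (SD, n = 4) and 14.2 ± 2.2 FPKM in mutants (SD, n = 3), a log2 fold change of 0.35 that did not pass either (adjusted p = 0.16, limma-trend).

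Acsl6 (ENSMUSG00000020333, GRCm38 chromosome 11, 54303798 to 54364756, plus strand) showed the widest spread within the mutant group relative to its mean. Controls were tightly grouped at 46.4, 46.7, 43.6 and 45.9 FPKM, while mutants were at 44.4, 59.0 and 78.0 FPKM. Mutant 1 was thus within the control range and mutant 3 far above it. The log2 fold change was 0.36 ± 0.15 (SE; 95% interval 0.01 to 0.72; adjusted p = 0.19 in limma-trend). Without mutant 1 it was 0.57 with an adjusted p of 0.0434, and without mutant 3 it was 0.16. Acsbg1, a very-long-chain synthetase of the bubblegum family, had the same order of samples in mutants, with 100.5, 136.8 and 179.9 FPKM against 100.0 to 114.2 FPKM in controls (log2 fold change 0.33, adjusted p = 0.248 in limma-trend).

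Dbi lies at GRCm38 chromosome 1, 120113280 to 120121078, minus strand (ENSMUSG00000026385). It was at 582.2, 706.3, 592.6 and 626.3 FPKM in controls and at 634.1, 880.6 and 841.1 FPKM in mutants. Again mutants 2 and 3 stood above all controls and mutant 1 did not. The log2 fold change was 0.31 ± 0.12 (SE; 95% interval 0.03 to 0.59; adjusted p = 0.164 in limma-trend). Set against the control of the same replicate number, Dbi was higher in mutants by 0.12, 0.32 and 0.50 on the log2 scale, while Acsl3 differed by -0.01, 0.61 and 0.34 and Acsl6 by -0.06, 0.33 and 0.83. Of the 10 genes, Acsl1, Acot1, Acot7 and Dbi had the same sign in all 3 such pairs, against 50.1% of all genes tested.

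Acsl3, Acsl6 and Dbi were each lowest among mutants in mutant 1, and so was the sum over 8 astrocyte markers. That sum was 3012 to 3446 FPKM in controls and 3971, 4737 and 4748 FPKM in mutants 1 to 3. Within it, Gja1 was at 385.4, 335.8 and 335.7 FPKM in mutants 1 to 3 and Gjb6 at 219.1, 130.9 and 158.7 FPKM. These were highest in mutant 1, and the rest of the 8 were lowest there. All 8 astrocyte markers had higher estimates in mutants, and Aldh1l1, Slc1a2, Gja1 and Aldoc passed the adjusted threshold. Every estimate was also higher for 8 microglia, 6 endothelial and 6 meningeal fibroblast markers, none past the threshold. The part of these cell types in the 3 differences was not tested.

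**Figure D2:**
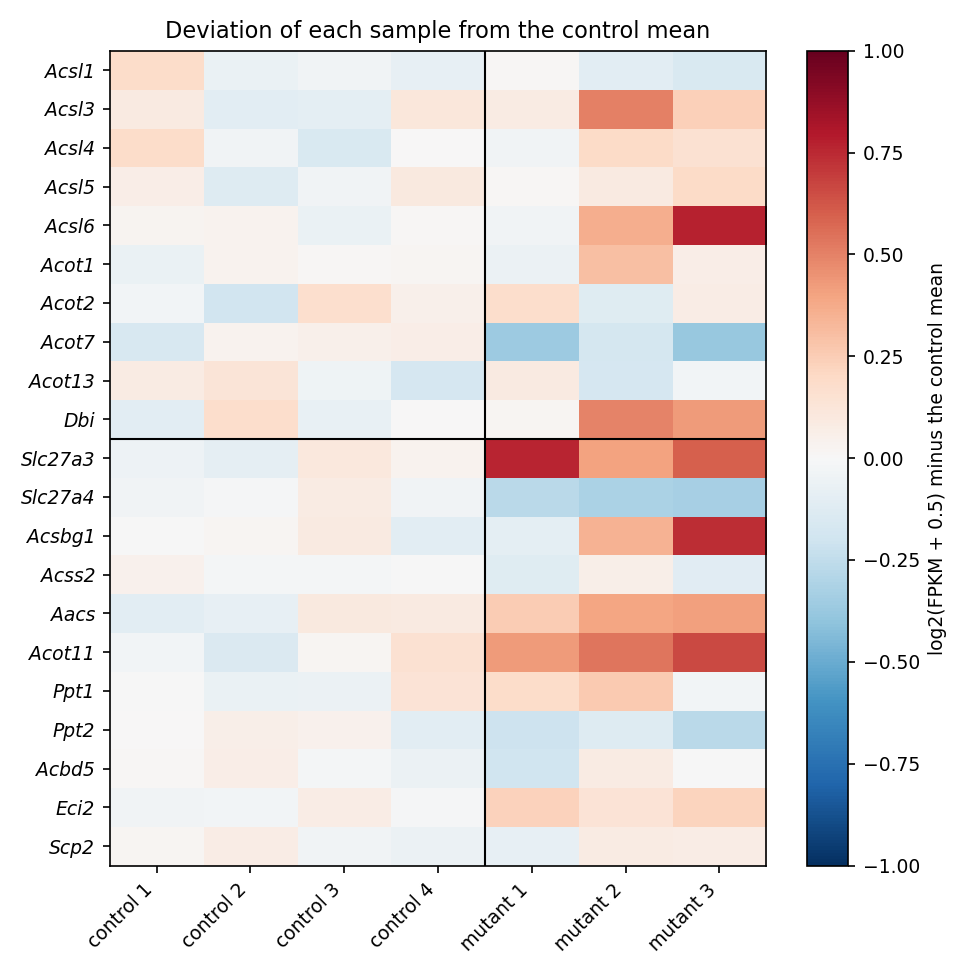
Deviation of each sample from the control mean, in log2(FPKM + 0.5), for the 10 genes (above the horizontal line) and for other genes of acyl-CoA handling (below it), with the vertical line between controls and mutants. Acsl3, Acsl6 and Dbi are high in mutants 2 and 3 and near 0 in mutant 1, whereas Acot7 is low in all 3 mutants.

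For the other 6 genes the intervals of the log2 fold change included 0. Acsl1 was at 107.7, 90.4, 92.7 and 89.7 FPKM in controls and 95.9, 88.3 and 85.1 FPKM in mutants, and all mutants lay below control 1 (log2 fold change -0.08, 95% interval -0.26 to 0.10). Acsl4 was at 5.97 to 7.69 FPKM in controls and 6.54 to 7.73 FPKM in mutants, with an interval of -0.13 to 0.34. Acsl5 was at 5.28 to 6.24 FPKM in controls and 5.85 to 6.71 FPKM in mutants, with an interval of -0.11 to 0.31. For each of these 3 synthetases a difference of more than 0.34 in log2 lay outside the interval. Among the thioesterases, Acot1 was at 11.2 to 12.1 FPKM in controls and 11.3 to 14.6 FPKM in mutants (log2 fold change 0.10, 95% interval -0.11 to 0.31), with a fold change of 0.18 without mutant 1 and 0.0024 without mutant 2. Acot2 was at 3.504 to 4.63 FPKM in controls and 3.70 to 4.66 FPKM in mutants, a log2 fold change of 0.04 (interval -0.23 to 0.31) that had the opposite sign on normalized counts and on median-centered samples. Acot13 was at 18.6 to 22.8 FPKM in controls and 18.5 to 22.2 FPKM in mutants (log2 fold change -0.04, interval -0.25 to 0.17). The limma-trend adjusted p-values of these 6 genes were between 0.535 and 0.865.

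Because FPKM is a level per length, the members of a family can be summed within a sample and each given as a percent of the sum, which does not depend on how libraries were scaled. The summed Acsl level was 480 ± 33 FPKM in controls (SD, n = 4) and 561 ± 62 FPKM in mutants (SD, n = 3; exact permutation p = 0.171, two-sided). Acsl3 supplied most of it, 68.0% ± 1.5 in controls and 70.6% ± 3.0 in mutants. Acsl1 supplied 20.9%, 20.04%, 20.5% and 17.9% in controls 1 to 4 and 19.2%, 14.2% and 15.1% in mutants, with mutant 1 inside the control range. Acsl6 supplied 9.54% ± 0.60 in controls and 10.8% ± 2.7 in mutants, and Acsl4 and Acsl5 each less than Acsl6 at 1.12% to 1.40% in either group mean. The smallest adjusted p among the 5 shares was 0.286 (exact permutation tests, two-sided, adjusted over 5), in a design that could not give an unadjusted p below 0.0571. The Acsl1 share was lower in the mutant than in the control of the same number in all 3 pairs. Of all single genes tested, 50.1% also had the same sign in all 3 pairs, and the pairing of number 1 is uncertain. The difference in the Acsl3 share was 2.63 percentage points, and 0.888 without mutant 2.

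The summed level of the 4 thioesterases was 145 ± 7.3 FPKM in controls (SD, n = 4) and 125 ± 6.5 FPKM in mutants (SD, n = 3), with an exact permutation p of 0.0571 (two-sided). All mutants lay below all controls, at 120.4 to 132.5 against 134.4 to 149.6 FPKM, where 21.1% of all single genes tested did not overlap either. Of the 4, Acot7 alone did not overlap between groups. The others averaged 11.8 and 12.7 FPKM (Acot1), 4.09 and 4.22 FPKM (Acot2) and 20.9 and 20.4 FPKM (Acot13) in controls and mutants. Acot7 made up 74.6% ± 1.9 of the sum in controls and 70.1% ± 1.9 in mutants, with mutant 2 at 72.223% just above control 1 at 72.205%. Acot1 made up 8.33%, 8.06%, 7.97% and 8.06% in controls 1 to 4 and 9.21%, 11.01% and 10.2% in mutants 1 to 3. Its share was above every control in every mutant, a difference of 2.06 percentage points that reached the smallest two-sided exact p of 0.0571 and an adjusted p of 0.229 over the 4 genes. Acot13 made up 14.5% ± 1.8 and 16.4% ± 2.2, and Acot2 2.82% ± 0.33 and 3.39% ± 0.53, in controls and mutants. Since shares sum to 100 in a sample, a lower Acot7 share leaves higher shares for the others, and the FPKM of Acot1 itself overlapped between groups.

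**Figure D3:**
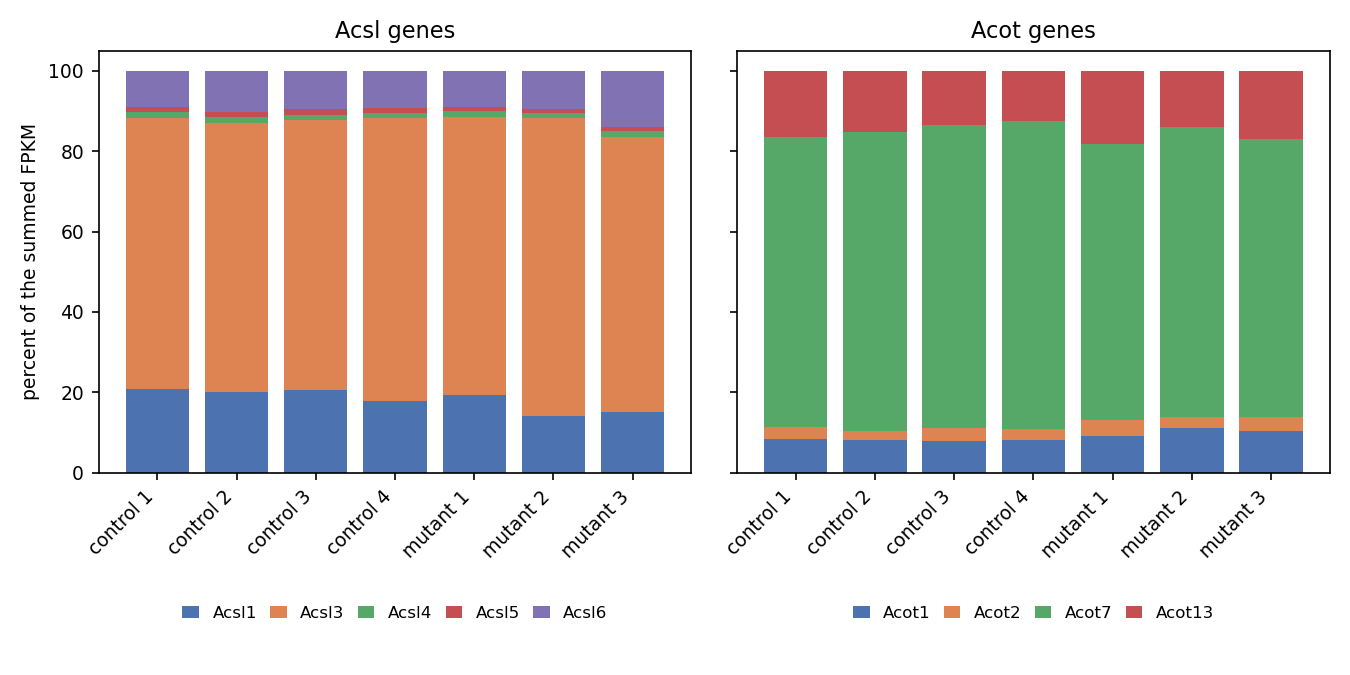
Percent of the summed FPKM of the 5 Acsl genes (left) and the 4 Acot genes (right) in each control and mutant sample. Acsl3 and Acot7 make up most of their families in all samples, and the Acot1 share is 7.97% to 8.33% in controls and 9.21% to 11.01% in mutants.

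Other genes of acyl-CoA handling were read from the same limma-trend fit. Of 42 listed, 41 were in the table and 24 were high enough to test. Of those 24, 3 were higher and 1 was lower in mutants past the adjusted threshold. That is 4 of 24 beside 0 of the 10 members and 2.62% of all genes tested. The groups did not overlap for 8 of the 24, beside 21.1% of all genes tested.

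Among the other synthetases, 11 of 20 were tested, 2 rose and 1 fell, with a median log2 fold change of 0.31. Slc27a3, a fatty acid transport protein with synthetase activity for long and very long chains, was at 2.12, 2.05, 2.43 and 2.28 FPKM in controls and rose to 4.11, 3.08 and 3.61 FPKM in mutants (log2 fold change 0.59 ± 0.12, SE; adjusted p = 0.0428, limma-trend). Slc27a4, its relative in the same family, was at 33.6, 34.2, 36.6 and 33.7 FPKM in controls and fell to 28.6, 27.5 and 27.4 FPKM (log2 fold change -0.31 ± 0.06, SE; adjusted p = 0.0369, limma-trend). Of the other Slc27 genes, Slc27a1 and Slc27a6 did not pass and Slc27a2 and Slc27a5 were below the filter. Aacs, which activates the ketone body acetoacetate in the cytosol for lipid synthesis, was at 83.8, 85.5, 96.7 and 96.1 FPKM in controls and rose to 107.6, 118.9 and 120.2 FPKM (log2 fold change 0.35 ± 0.07, SE; adjusted p = 0.0480, limma-trend). On normalized counts the Aacs log2 fold change was 0.28 with an adjusted p of 0.103, and with centered samples 0.27 with an adjusted p of 0.114 (limma-trend), so the call was lost under both other scalings. Acss2, the acetyl-CoA synthetase of cytosol and nucleus, was the most abundant of the list together with Acsbg1 and Aacs, at 115.6 to 120.8 FPKM in controls and 107.8 to 122.4 FPKM in mutants (log2 fold change -0.06, adjusted p = 0.604). It overlaps Gss and Ggt7 on the other strand.

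Among the other thioesterases, 7 of 15 were tested and only Acot11 passed, with a median log2 fold change of -0.07 over the list. Acot11, a thioesterase with a lipid-binding START domain best known from brown fat, was at 26.2, 24.2, 27.0 and 29.7 FPKM in controls and rose to 36.1, 38.9 and 42.5 FPKM in mutants (log2 fold change 0.54 ± 0.09, SE; adjusted p = 0.0239, limma-trend). It was above all controls in all mutants, where 21.1% of all genes tested did not overlap between groups. Acot11 overlaps Fam151a on the other strand, which was at a mean of 0.0088 FPKM. The lysosomal thioesterases Ppt1, whose loss causes a neuronal ceroid lipofuscinosis, and Ppt2 had log2 fold changes of 0.14 and -0.20 and did not pass (adjusted p = 0.342 and 0.119 in limma-trend). Ppt2 did not overlap between groups either, at 27.4 to 30.6 FPKM in controls and 24.3 to 26.9 in mutants.

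None of the 6 tested genes among 7 other acyl-CoA binding proteins passed, and their median log2 fold change was 0.05. Scp2, the sterol carrier protein, was at 172.5 to 189.3 FPKM in controls and 170.1 to 190.1 FPKM in mutants. Eci2, an enoyl-CoA isomerase with an acyl-CoA binding domain, was at 51.0 to 55.03 FPKM in controls and 57.6 to 61.5 FPKM in mutants, without overlap (log2 fold change 0.20, adjusted p = 0.0926 in limma-trend). Acbd5, a binding protein of the peroxisomal membrane, had a log2 fold change of -0.04. Scp2 overlaps Podn on the same strand and Ppt1 overlaps Cap1 on the other.

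Over the 7 fits that left out a single library, Aacs lost its call in all 7 and Slc27a3 and Slc27a4 in 6 each, all but the fit without mutant 2. Of the 4 calls none was kept without control 1, control 2, control 3 or mutant 3, and Acot11 alone was kept without control 4 or mutant 1.

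**Figure D4:**
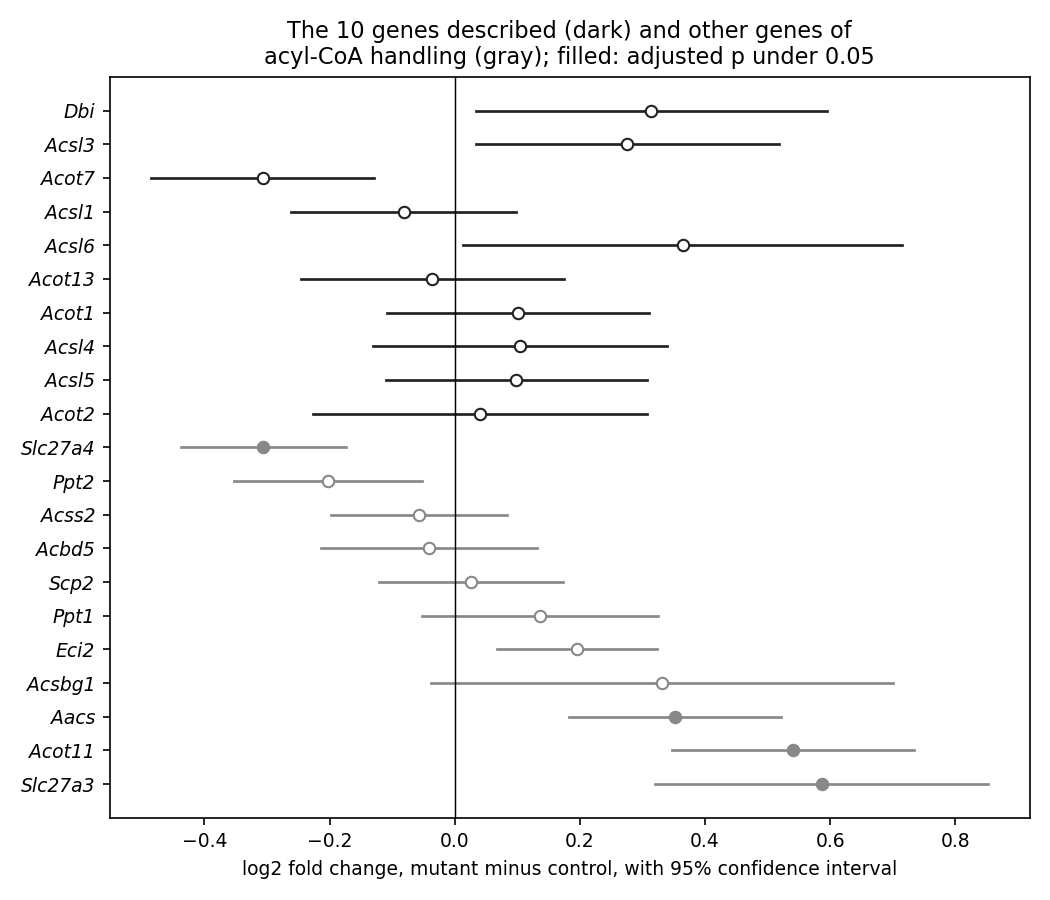
Log2 fold change (mutant minus control, log2(FPKM + 0.5)) with its 95% confidence interval for the 10 genes (dark) and other named genes of acyl-CoA handling (gray), where filled points passed an adjusted p of 0.05 in limma-trend. Filled points are Slc27a4 at -0.31, Aacs at 0.35, Acot11 at 0.54 and Slc27a3 at 0.59, and none of the 10 genes is filled.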

How the data were processed

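Per the labels and the study's methods, polyadenylated RNA was made into libraries with a stranded kit. The authors aligned reads with STAR 2.5.1b to GRCm38, estimated gene counts with RSEM 1.2.22, and tested with edgeR. Whether counting used the strand is not given in the sources used here. The authors deposited FPKM and normalized counts, a signal of expected counts divided by a size factor, for 4 control and 3 mutant samples. Their fold changes, p-values and FDR were not used.

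A normalized count divided by 100 times the smallest value of its sample gave estimated reads, 27452222 to 43462575 a sample. Since 72.5% to 78.7% of values of 0.5 to 10 reads were whole (tolerance 0.02), no count test was run. Genes that reached 0.5 FPKM in 3 or more samples (13866 of 22880) were fitted as log2(FPKM + 0.5) with limma-trend (limma 3.58.1, R 4.3.3), with genotype alone as a term and a Benjamini-Hochberg adjusted threshold of 0.05. The script was tested on simulated data. Single values were compared with two-sided exact permutation tests in scipy 1.17.1 over 35 assignments, whose smallest p is 0.0571. Windows of 125 bases came from GENCODE M21.

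Same-numbered controls and mutants deviated together from their group means (r of 0.168, 0.409 and 0.270 for numbers 1 to 3), so the numbers were taken to pair the samples, though the labels do not say what a number marks. Differently numbered combinations ran from -0.353 to 0.205. The highest of these, control 4 with mutant 1, was above number 1, so the pairing of number 1 is uncertain. The 10 genes and all lists were chosen with earlier results of these data known. Named besides the 10 and Fasn are listed genes past the threshold, the 3 highest of each list, genes overlapping these, and the 3 genes most like the member with the smallest p. Alternatives were pseudocounts of 0.1 and 1, no filter, a minimum of 1 FPKM, normalized counts with a pseudocount of 1, median-centered samples, robust moderation, a replicate block, and leaving out each sample.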

Additional observations from a re-analysis of the deposited data

Results flagged for a closer look

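In the 4 controls, 31 sets of values were examined for a sample far from the others, of which chance would mark about 1 in 20, and 3 were marked. Acsl1 in control 1 was at 107.7 FPKM, with the other controls at 89.7 to 92.7 FPKM. Acot7 in control 1 was at 97.0 FPKM, with the other controls at 111.2 to 113.7 FPKM. Without control 1 the Acot7 log2 fold change was -0.36 (adjusted p = 0.0671 in limma-trend). The Acsl3 share of the summed Acsl level in control 4 was 70.3%, with the other controls at 67.0% to 67.4%.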

How the results depend on the processing

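Of 150 refitted fold changes of the 10 genes, 142 kept their direction and their side of the adjusted threshold, 6 reversed and 2 passed it. The number of the 10 genes past the threshold was 0 under every alternative except 1 (Acsl6) without mutant 1 and 1 (Acot7) without mutant 2, a range of 0 to 1 over the fits that left out a sample. Over all genes, 186 passed without mutant 1 and 907 without mutant 2. Acot2 had log2 fold changes of -0.0325 on normalized counts, -0.0417 with centered samples and -0.0256 to 0.12 without a sample, and Acot13 -0.10 to 0.0303 without a sample. The other genes past the threshold numbered 4, 0 without the filter and 0 to 4 without a sample. The Acsl6 share difference of 1.21 percentage points ran from -0.35 to 2.13 without a sample and was the only 1 of 72 recomputed share differences to reverse. With the replicate block, 1159 of all genes passed (890 higher, 269 lower) in place of 363, none of the 10 genes, and 6 other genes, with Acsf2 and Acss3 added. Acot7 had -0.28 and an adjusted p of 0.0683 in limma-trend with that pairing. Control 4 has no mutant of the same number, so it does not enter the genotype estimate of that fit. Over all genes, 23 passed without the filter and 6 to 907 without a sample, fewest without control 3 or mutant 3. The cause of these changes was not tested.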
